A study of Homo sapiens with 21 samples.

Results

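PPP1R1B encodes DARPP-32, a regulator of protein phosphatase 1, and a shorter product, t-DARPP. It was the single row with that symbol among the 37355 genes of the deposited count table (ENSG00000131771.13), and it was 1 of the 17650 genes with enough reads to be tested. The 21 RNA-seq libraries, 3 in each of 7 groups, come from BT474, an established line of HER2-positive human breast cancer cells in which ERBB2, the HER2 gene, is amplified. BT-TPR1 and BT-TPR2 are BT474 cell pools resistant to trastuzumab plus pertuzumab, and BT-TR1 and BT-TR2 are pools resistant to trastuzumab. All 4 pools were grown free of antibody for the last 7 days. BT474 cells were given 10 µg/mL trastuzumab plus 10 µg/mL pertuzumab for 3 days, or 10 µg/mL trastuzumab for 3 days, or were left untreated. Both drugs are antibodies against HER2 that bind different parts of it. Each kind of resistance is represented by 2 pools, and the pools, not the 3 libraries of a pool, are the units of resistance. Nothing in the labels says that the libraries of a group came from separate cultures, so each p measures only the spread between these libraries.

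DARPP-32 is best known from neurons of the striatum, where dopamine acting through cAMP leads protein kinase A to phosphorylate it. Phosphorylated in that way it inhibits protein phosphatase 1, whereas phosphorylation by CDK5 at another site turns it into an inhibitor of protein kinase A. The t-DARPP product lacks the first part of the protein, which holds the docking motif for protein phosphatase 1 and the protein kinase A site. Both products have been described in breast and gastric cancers, and t-DARPP in HER2-positive breast cancer cells selected with trastuzumab. The gene lies beside ERBB2 on chromosome 17.

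The annotation shows why the counts below cannot tell the products apart. PPP1R1B lies on the plus strand of chromosome 17, from 39626740 to 39636626 on hg38, and no other annotated gene on either strand overlaps it. GENCODE 29 lists 10 transcripts of it, of which 6 are coding and 4 retain an intron. Of the coding transcripts, 4 start translation at 39627393, the DARPP-32 start, and 2 start at 39629197, the t-DARPP start. PPP1R1B-201 carries the upstream start and 204 codons, and PPP1R1B-203 carries the downstream start and 168 codons. These 2 transcripts share 1295 exonic bases, while 550 are found in PPP1R1B-201 alone and 209 in PPP1R1B-203 alone. Of the exonic bases of the t-DARPP class, 86.1% are thus also DARPP-32 bases, and a count summed over the gene holds both. The start of each coding sequence is printed here because it is where the products differ. It is taken from the GENCODE 29 transcripts on hg38, plus strand, and the PPP1R1B-201 stretch, chr17:39627393-39629199, is spliced from 81 bases of the exon with the start codon and 30 bases of the next exon. In the first line the capitals mark codons 8 to 11, the docking motif for protein phosphatase 1, then codon 34, which encodes the threonine phosphorylated by protein kinase A, then codon 37, the start codon of t-DARPP. In the second line, chr17:39629197-39629226, they mark that same start codon, and from there on the coding sequences are identical.
PPP1R1B-201 coding start: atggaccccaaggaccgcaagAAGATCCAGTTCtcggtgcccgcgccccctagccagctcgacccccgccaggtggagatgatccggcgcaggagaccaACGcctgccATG
PPP1R1B-203 coding start: ATGctgttccggctctcagagcactcctca

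Library totals ran from 7939270 to 21746391 counts, with the lowest total in BT-TR1 replicate 3. Mitochondrially encoded transcripts took 13.7% to 33.3% of the counts of a library. Replicate 1 of each group stood apart in a way that went with GC content. When a library's deviation from its group was set against GC content across genes, r was 0.313 to 0.627 for replicate 1 and -0.537 to 0.0828 for replicates 2 and 3. The GC content of a gene was taken from its longest annotated transcript. For PPP1R1B that is PPP1R1B-206, a transcript of 2879 bases that retains an intron and has no annotated coding sequence. Its GC content is 58.4%, at the 84.4th percentile of the 17554 tested genes with a value. The GC content of the coding transcripts was not measured. All 10 luminal breast epithelium markers looked for were tested, and their summed level was 8464 to 16417 CPM, the count scaled to library size, in every library. The number called lower than in untreated cells (adjusted p under 0.05, edgeR) was 4 in BT-TPR1, 4 in BT-TPR2 and 5 in either trastuzumab-resistant pool. A single one was called higher, in BT-TPR2. Over all tested genes the share called in either direction was 27.3% in BT-TPR1, 31.6% in BT-TPR2, 43.6% in BT-TR1 and 24.9% in BT-TR2. Most markers of other cells were low: 5 of 6 fibroblast markers, the 3 leukocyte markers in the table and 6 of 7 striatal neuron markers in the table stayed under 1 CPM in every library, with the striatal set summing to between 0.792 and 2.19. The fibroblast exception was COL1A1, a collagen gene, at 15.8 to 46.2 CPM, and it was not called in any pool. Of 3 endothelial markers, PECAM1 was under 1 CPM in every library, while VWF, the von Willebrand factor gene, lay between 3.05 and 18.2 CPM. CDH5, encoding the cadherin of vascular endothelium, was called higher in all 4 pools, averaging 0.424 ± 0.160 CPM in BT-TPR1, 0.676 ± 0.204 in BT-TPR2, 2.60 ± 0.711 in BT-TR1 and 2.01 ± 0.195 in BT-TR2, against 0.121 ± 0.0880 in untreated cells (SD, n = 3). VWF was called lower in BT-TPR1, BT-TPR2 and BT-TR1. The endothelial set summed to between 5.39 and 18.4 CPM in these libraries of the BT474 line, and the source of these transcripts was not tested.

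PPP1R1B was scarce in BT474 cells without resistance and abundant in every resistant pool. Levels are CPM of the TMM-normalized library, for replicates 1, 2 and 3. BT-TPR1 had 101, 92.9 and 95.5 CPM (1750, 1476 and 1491 reads). BT-TPR2 had 71.4, 83.5 and 82.6 CPM (1228, 1796 and 1318 reads). These 6 libraries of dual resistance were the highest of the 21, and the lowest BT-TPR1 library lay above the highest BT-TPR2 library. BT-TR1 had 26.8, 22.8 and 21.1 CPM (362, 262 and 160 reads). BT-TR2 had 31.8, 34.5 and 33.5 CPM (531, 671 and 522 reads). The libraries of these pools did not overlap with each other or with any other group. Cells given both antibodies had 3.85, 3.31 and 3.16 CPM (70, 67 and 65 reads). Cells given trastuzumab had 2.75, 1.86 and 1.46 CPM (49, 38 and 31 reads), and untreated cells had 2.14, 2.02 and 2.63 CPM (39, 39 and 58 reads). The values with both antibodies all lay above those of untreated cells, whereas those with trastuzumab lay on both sides of them.

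**Figure D1:**
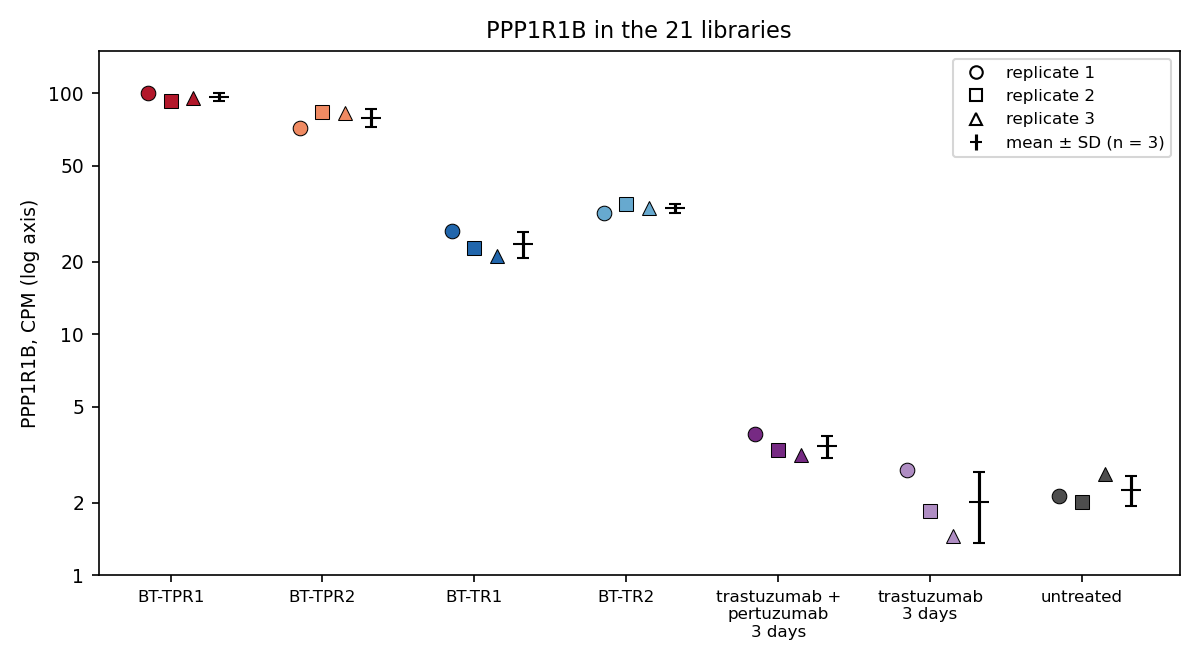
PPP1R1B in each of the 21 libraries, in CPM on a log axis, by group. Points are libraries, with a shape for each replicate number, and the bars beside them give the mean ± SD of 3 libraries. The 12 libraries of the resistant pools sit between 21.1 and 101 CPM, and the other 9 between 1.46 and 3.85 CPM.

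Group means (± SD, n = 3) were 96.3 ± 3.93 CPM in BT-TPR1, 79.2 ± 6.73 in BT-TPR2, 23.6 ± 2.95 in BT-TR1, 33.3 ± 1.36 in BT-TR2, 3.44 ± 0.360 with both antibodies, 2.02 ± 0.660 with trastuzumab and 2.26 ± 0.325 in untreated cells. Ranked among the 17650 tested genes by mean CPM, PPP1R1B stood at 1937 in BT-TPR1, 2411 in BT-TPR2, 6541 in BT-TR1, 5356 in BT-TR2, 12230 with both antibodies, 13411 with trastuzumab and 13149 in untreated cells. It thus stood at the 89.0th percentile of tested genes in BT-TPR1 and at the 25.5th in untreated cells. The SD was 4.08% to 12.5% of the mean within the pools, and 32.6% with trastuzumab, where the reads were fewest. Levels per kilobase used the exonic bases of all annotated transcripts of a gene, 4554 for PPP1R1B. That length includes transcripts that retain an intron, whereas PPP1R1B-201 alone has 1845 exonic bases. The scale therefore depends on the length chosen and does not rank genes against each other. Per kilobase the mean level was 21.2 CPM in BT-TPR1, 17.4 in BT-TPR2, 5.18 in BT-TR1, 7.31 in BT-TR2, 0.756 with both antibodies, 0.444 with trastuzumab and 0.497 in untreated cells. On that scale the catalytic subunits of protein phosphatase 1 lay between 54.9 and 84.0 (PPP1CA), 20.9 and 39.8 (PPP1CB), and 24.9 and 35.4 (PPP1CC) over the 7 groups. ERBB2 lay between 527 and 793.

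Each resistant pool was compared with untreated cells to ask what accompanied resistance. Log2 fold changes are given ± SE from edgeR's quasi-likelihood test over all 21 libraries, with p-values adjusted by the Benjamini-Hochberg method over the 17650 genes and a call at an adjusted p under 0.05. PPP1R1B rose in BT-TPR1 by 5.40 ± 0.18 (adjusted p = 1.11e-13), a 42.3-fold difference with a 95% interval of 32.8 to 54.5. It rose in BT-TPR2 by 5.12 ± 0.17 (adjusted p = 2.57e-13), or 34.7-fold, in BT-TR1 by 3.38 ± 0.17 (adjusted p = 5.14e-11), or 10.4-fold, and in BT-TR2 by 3.87 ± 0.17 (adjusted p = 1.72e-11), or 14.6-fold. All 3 libraries of each pool lay above all 3 of untreated cells. Of all tested genes, 12.9% were called higher in BT-TPR1, 15.6% in BT-TPR2, 21.3% in BT-TR1 and 12.7% in BT-TR2. Among the genes called higher, 1 rose more than PPP1R1B in BT-TPR1, 2 did in BT-TPR2, 31 in BT-TR1 and 21 in BT-TR2. In bulk RNA, more cells with PPP1R1B transcripts and more transcripts per cell cannot be told apart.

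Against untreated cells 957 genes (5.42%) were called higher in all 4 pools. The count was 1887 with the replicate block, 1566 with the GC correction, 2256 with both and 417 when only the groups compared were fitted. For 4 of the 957, PPP1R1B included, the smallest of the 4 changes reached that of PPP1R1B. The others were PTGIS, FOLR1 and SCGB2A2. PTGIS, encoding prostacyclin synthase, and FOLR1, a folate receptor, had 0 reads in every untreated library, so their fitted changes depend on the constant added to the counts. PTGIS did not pass 13 reads in any library. SCGB2A2, which encodes the secreted breast protein mammaglobin, averaged 495 ± 34.5 CPM in BT-TPR1, 109 ± 6.99 in BT-TPR2, 1021 ± 72.0 in BT-TR1, 1495 ± 159 in BT-TR2 and 10.2 ± 1.29 in untreated cells (SD, n = 3). The order of pools differed: SCGB2A2 was higher in the trastuzumab-resistant pools, where PPP1R1B was lower, than in the dual-resistant ones.

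Treatment for 3 days did not bring PPP1R1B to the level of the resistant pools. With both antibodies it rose by 0.59 ± 0.18 (adjusted p = 0.0343, edgeR; 1.51-fold, higher in 3 of 3 libraries), in a comparison where 6.39% of genes were called higher. This call ended without untreated replicate 1 (0.57, adjusted p = 0.0843) or 2 (0.53, 0.104) and without replicate 1 (0.53, 0.0855), 2 (0.62, 0.0707) or 3 (0.65, 0.0638) of the cells given both antibodies. With trastuzumab alone the change was -0.18 ± 0.19 (adjusted p = 0.619, 95% interval -0.58 to 0.21), and 7.48% of genes were called in either direction. Without trastuzumab replicate 3 its value was 0.0090. Set against trastuzumab alone, both antibodies gave 0.78 ± 0.18 (adjusted p = 0.0478), where 0.487% of genes were called higher. That call held in 5 of 21 runs with a library left out: it ended without any one library of the cells given both antibodies (adjusted p = 0.0876 to 0.218) and without trastuzumab replicate 2 (0.226) or 3 (0.338), while without trastuzumab replicate 1 the change was 1.05 (0.00445). Leaving out libraries of groups outside the comparison ended it too, at adjusted p up to 0.0694.

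Against cells under the antibody they resist, the pools kept high PPP1R1B. BT-TPR1 was higher than cells given both antibodies by 4.81 ± 0.17 (adjusted p = 4.48e-13, edgeR), and BT-TPR2 by 4.52 ± 0.17 (adjusted p = 1.15e-12), with 11.9% and 13.6% of genes called higher. BT-TR1 was higher than cells given trastuzumab by 3.56 ± 0.17 (adjusted p = 3.36e-11) and BT-TR2 by 4.05 ± 0.17 (adjusted p = 8.26e-12), with 20.3% and 11.7% of genes called higher. BT-TR1, the lowest of the pools, was also higher than cells given both antibodies by 2.78 ± 0.16 (adjusted p = 4.38e-10, 17.9% called higher). These comparisons share pools with those against untreated cells and are not separate evidence for the pools.

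**Figure D2:**
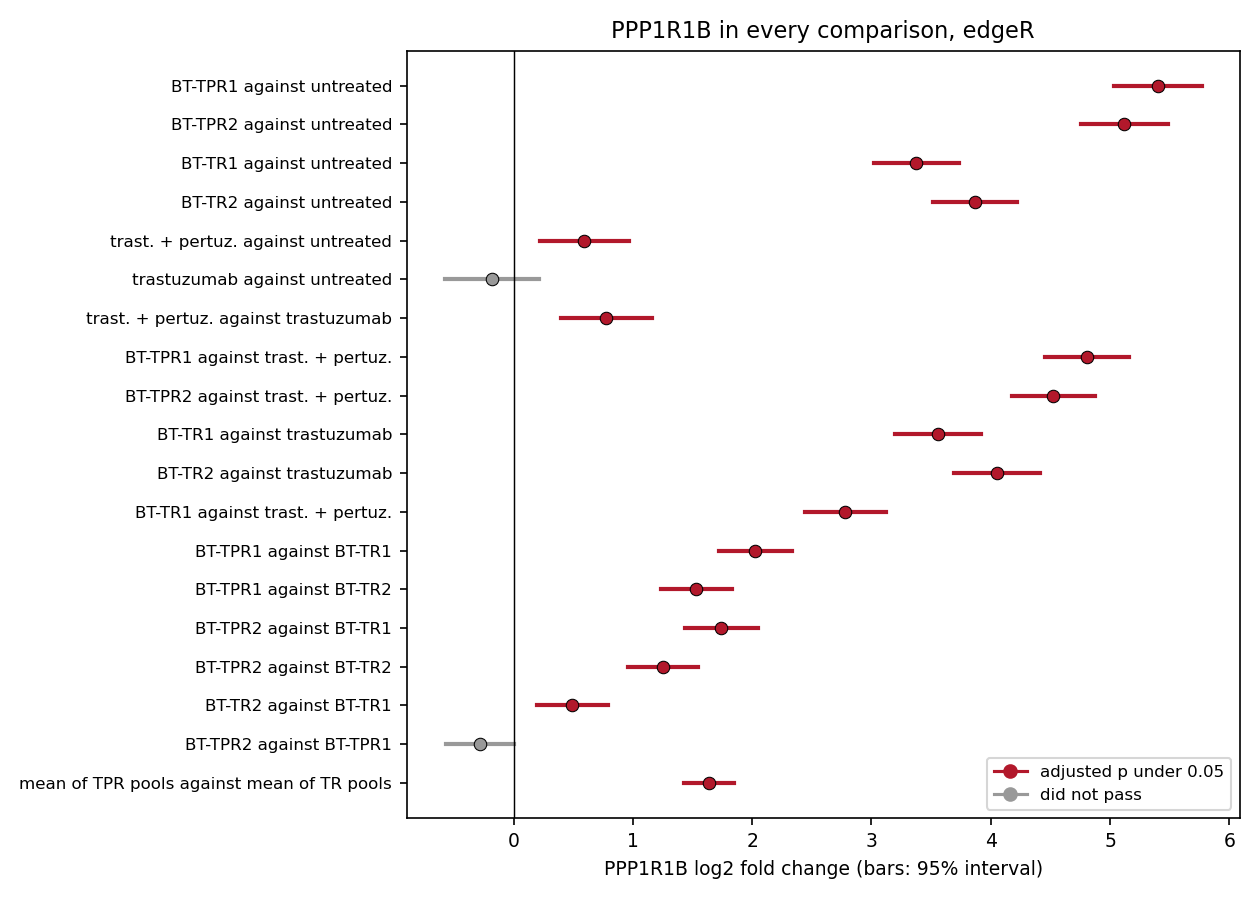
Log2 fold change of PPP1R1B in each comparison, tested group named first, with the 95% interval as a bar and color for the call. The pools lie at 3.38 to 5.40 against untreated cells and the short treatments at -0.18 and 0.59, and only trastuzumab against untreated and BT-TPR2 against BT-TPR1 did not pass.

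The pools with dual resistance had more PPP1R1B than the pools with trastuzumab resistance in every pairing. BT-TPR1 was higher than BT-TR1 by 2.03 ± 0.15 (adjusted p = 2.96e-08, edgeR) and than BT-TR2 by 1.53 ± 0.14 (adjusted p = 1.01e-06). BT-TPR2 was higher than BT-TR1 by 1.74 ± 0.14 (adjusted p = 8.77e-08) and than BT-TR2 by 1.25 ± 0.14 (adjusted p = 7.48e-06). Libraries of the pools compared did not overlap. The share of genes called higher was 13.8%, 2.42%, 12.2% and 2.53% in these 4 comparisons, in the order given. The mean of the 2 dual-resistant pools exceeded that of the 2 trastuzumab-resistant pools by 1.64 ± 0.10 (adjusted p = 1.11e-09), or 3.11-fold, with 8.45% of genes called higher. With 2 pools of each kind, a difference between kinds of resistance cannot be told apart from differences between individual pools.

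Within a kind of resistance the pools were closer. BT-TR2 was higher than BT-TR1 by 0.49 ± 0.14 (adjusted p = 0.0265, edgeR; 9.64% of genes called higher), and BT-TPR2 differed from BT-TPR1 by -0.28 ± 0.14 (adjusted p = 0.358, 95% interval -0.57 to 0.0044; 3.45% of genes called). The BT-TR2 call ended without BT-TR1 replicate 2 (0.46, adjusted p = 0.102) or 3 (0.42, 0.134) and without BT-TR2 replicate 1 (0.52, 0.0782), 2 (0.44, 0.0661) or 3 (0.49, 0.0512). With a correction of each library for the GC content of genes it came to 0.020 (adjusted p = 0.962). Across all 7 groups the levels therefore ran BT-TPR1, BT-TPR2, BT-TR2, BT-TR1, both antibodies, untreated and trastuzumab, and the neighbours in that order that did not differ by the test were BT-TPR1 with BT-TPR2 and untreated with trastuzumab.

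Few genes showed the order of pools that PPP1R1B had. A gene was counted when it was called higher in all 4 pools against untreated cells and in each dual-resistant pool against each trastuzumab-resistant pool, and 10 genes (0.0567%) met this, PPP1R1B among them. The rule was written from the order of PPP1R1B itself, so its own place in the count was fixed in advance and tests nothing. By the smallest of the 8 changes, PPP1R1B (1.25) came after ADAMTS18 (1.55), encoding a secreted metalloprotease, and ENDOU (1.29), encoding an endoribonuclease; these names were chosen after their values were seen. ADAMTS18 was a low gene, at 2.02 ± 0.535 CPM in BT-TPR1 (SD, n = 3). Without a single library the count lay between 4 and 10, and over all 33 alternatives between 3 and 58. PPP1R1B was in it every time, which only restates that its own 8 calls held. The size of the count was less stable. The count was 4 without BT-TR2 replicate 3, and 6 without BT-TR2 replicate 2, BT-TPR1 replicate 1 or BT-TPR2 replicate 3. With the replicate number as a block it was 25.

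No gene beside PPP1R1B on 17q12 rose as it did. This stretch of chromosome 17 is amplified together with ERBB2 in many HER2-positive tumors, so copy number is a natural question, but DNA was not measured here. Of 19 neighbours on the list, 15 were tested. MIEN1, a small gene next to ERBB2, was the only tested one called higher in all 4 pools, by 0.76 ± 0.11, 1.11 ± 0.12, 0.63 ± 0.11 and 0.95 ± 0.11 in BT-TPR1, BT-TPR2, BT-TR1 and BT-TR2. It was also called higher after short treatment with both antibodies (0.47 ± 0.11, adjusted p = 0.0112, edgeR) and with trastuzumab alone (0.49 ± 0.11, adjusted p = 0.0128). STARD3, whose start lies 438 bases beyond the end of PPP1R1B, changed in the same order of pools by -0.54 ± 0.25, -0.33 ± 0.24, -0.59 ± 0.25 and -0.25 ± 0.24, none of which passed (adjusted p = 0.107, 0.326, 0.0585 and 0.485, edgeR). ERBB2 changed by -0.47 ± 0.24, -0.26 ± 0.24, -0.59 ± 0.24 and -0.09 ± 0.24, and none passed (adjusted p = 0.154, 0.425, 0.053 and 0.821). With the replicate block STARD3 passed in BT-TPR1 (-0.53, adjusted p = 0.000399), BT-TPR2 (-0.33, 0.0143) and BT-TR1 (-0.56, 0.000126), and ERBB2 in BT-TPR1 (-0.46, 0.00685) and BT-TR1 (-0.58, 0.000709), each downward. The strand used in counting is not given in the sources used here. MIEN1 and PGAP3 lie on the minus strand and overlap ERBB2, so without strand reads of these 3 genes could not be told apart where they overlap.

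The remaining neighbours from CDK12 to GRB7 moved little beside PPP1R1B. CDK12, encoding a transcriptional kinase, was called higher in BT-TPR2 (0.41 ± 0.15, adjusted p = 0.0438, edgeR), a call that ended without 10 of the 21 libraries, at values from 0.31 to 0.53 over all alternatives. PNMT, which makes adrenaline, was called higher in BT-TPR2 (1.27 ± 0.40), a call that ended without untreated replicate 2 or 3 or BT-TPR2 replicate 1 (0.90 to 1.94 over all alternatives). PGAP3, a remodeller of GPI anchors, was called lower in BT-TR1 (-1.39 ± 0.32), and with the replicate block also in BT-TPR1 (-0.79, adjusted p = 1.46e-05), BT-TPR2 (-0.71, 3.78e-05) and BT-TR2 (-0.65, 0.00015). TCAP, a sarcomere protein gene, and GRB7, an adaptor gene, were not called in any pool, at changes of -0.09 to 0.40 for TCAP and -0.33 to 0.27 for GRB7. With the replicate block TCAP passed in BT-TPR2 (0.38, adjusted p = 0.037), and GRB7 passed in BT-TPR2 (0.27, 0.0202), BT-TR1 (-0.33, 0.00474) and BT-TR2 (0.27, 0.0198). With the GC correction TCAP, PNMT and GRB7 passed as higher in BT-TR1, at 0.80, 0.68 and 0.37, against -0.09, -0.86 and -0.33 without it. NEUROD2, the nearest listed gene upstream, did not pass the filter on low counts, with at most 16 reads in a library. In all, 1 of 15 tested neighbours was called higher and 1 lower in BT-TPR1, 5 and 0 in BT-TPR2, 2 and 2 in BT-TR1, and 1 and 0 in BT-TR2. With the replicate block these were 3 and 6, 7 and 3, 4 and 6, and 4 and 1. All genes tested were called in either direction at 27.3%, 31.6%, 43.6% and 24.9% without the block, and at 47.4%, 51.1%, 57.5% and 45.8% with it. The median change of the neighbours lay between -0.18 and 0.12.

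**Figure D3:**
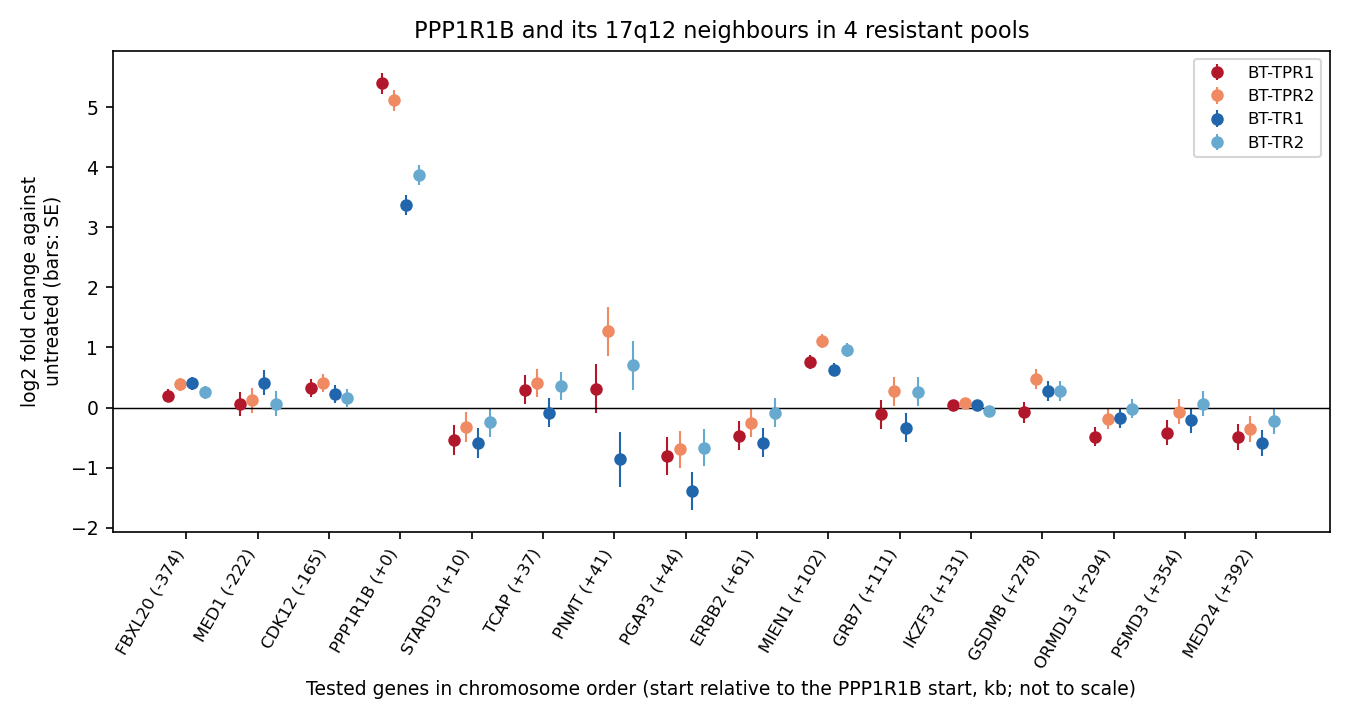
Log2 fold change against untreated cells (bars: SE) of PPP1R1B and its 15 tested neighbours on the list, in chromosome order, with the distance of each start from the PPP1R1B start in kb in parentheses. PPP1R1B lies at 3.38 to 5.40, and every neighbour lies below 1.30 in all 4 pools.

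The genes through which DARPP-32 works were then described from 11 lists, the neighbours included, which hold 160 genes, of which 126 were tested. Called members of all lists together were 20 higher and 20 lower in BT-TPR1, 34 and 23 in BT-TPR2, 32 and 42 in BT-TR1, and 21 and 22 in BT-TR2. That is 31.7%, 45.2%, 58.7% and 34.1% of the members, against 27.3%, 31.6%, 43.6% and 24.9% of all tested genes. With the replicate block BT-TPR1 had 38 higher and 35 lower, and BT-TR2 had 38 higher and 33 lower. With that block 47.4% of all tested genes were called in BT-TPR1, 51.1% in BT-TPR2, 57.5% in BT-TR1 and 45.8% in BT-TR2. No member of these lists rose as much as PPP1R1B in any pool, and the largest rise in each was that of PPP1R14C. Between the means of the dual-resistant and the trastuzumab-resistant pools, 24 members were called higher and 10 lower, at 27.0% against 19.7% of all tested genes, and again no member differed by as much as PPP1R1B.

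**Figure D4:**
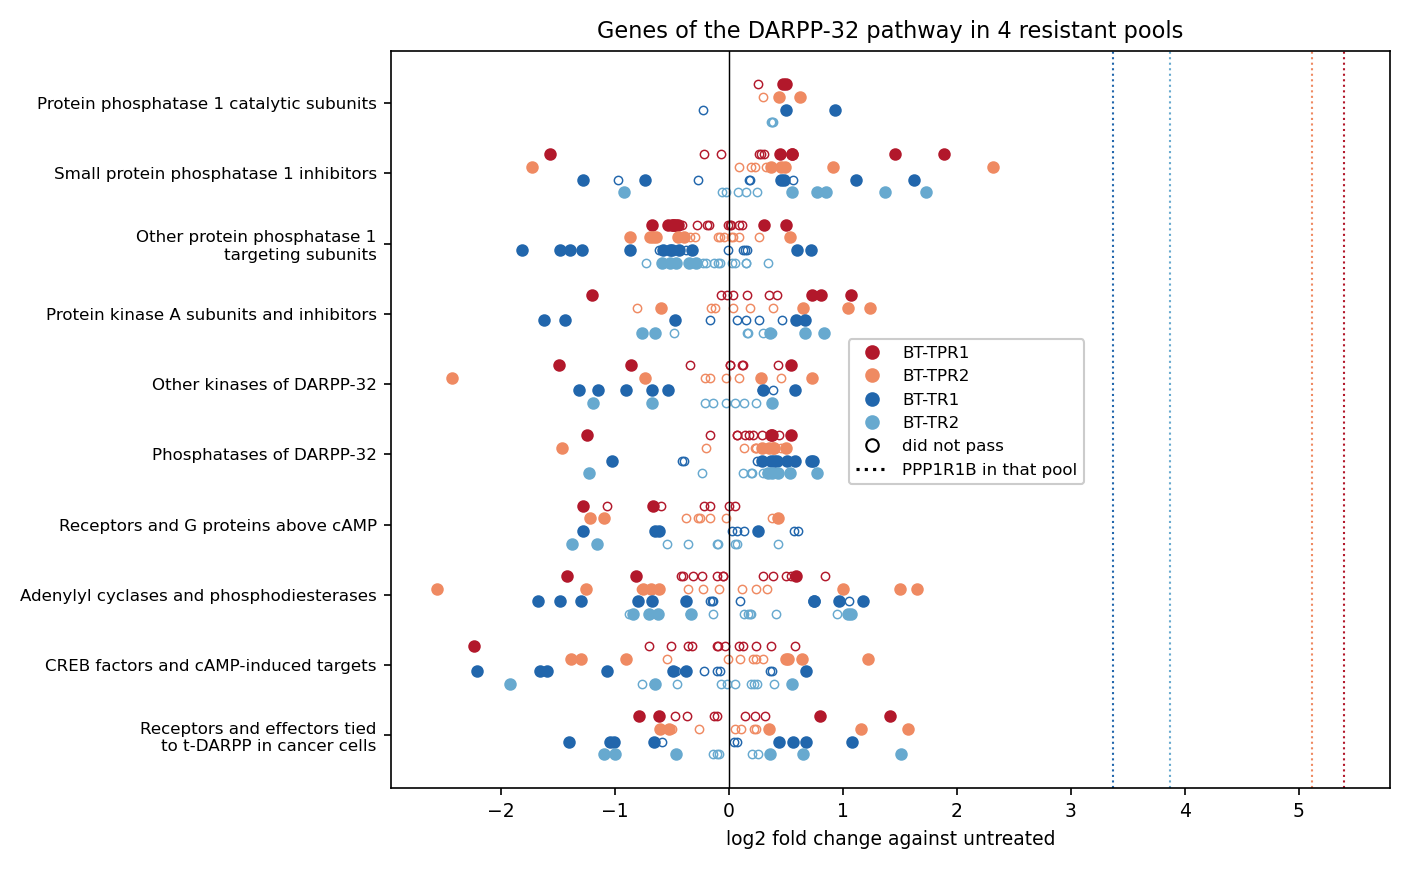
Log2 fold change against untreated cells of the tested members of 10 lists around DARPP-32, one row of points per pool, with filled points for genes called and open points for those that did not pass. Dotted lines mark PPP1R1B in each pool at 5.40, 5.12, 3.38 and 3.87, to the right of every member.

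Protein phosphatase 1 itself changed modestly. Of its 3 catalytic subunits, PPP1CB and PPP1CC were called higher in BT-TPR1, BT-TPR2 and BT-TR1, by 0.47 ± 0.15, 0.62 ± 0.15 and 0.93 ± 0.15 for PPP1CB and by 0.50 ± 0.16, 0.44 ± 0.16 and 0.51 ± 0.16 for PPP1CC. In BT-TR2 they stood at 0.37 ± 0.15 and 0.38 ± 0.16 and did not pass (adjusted p = 0.0705 and 0.0813, edgeR), but passed with the replicate block (0.38 for both, adjusted p = 0.000718 and 0.00221). PPP1CA was not called in any pool, with changes of -0.22 to 0.39. With the block all 3 subunits passed in each pool, 3 higher in BT-TPR1, BT-TPR2 and BT-TR2, and 2 higher and 1 lower in BT-TR1. In BT-TPR1, BT-TPR2, BT-TR1 and BT-TR2, 47.4%, 51.1%, 57.5% and 45.8% of all tested genes were called with the block. Without it these shares were 27.3%, 31.6%, 43.6% and 24.9%. The median change of the 3 subunits was 0.47, 0.44, 0.51 and 0.38 in BT-TPR1, BT-TPR2, BT-TR1 and BT-TR2, against medians within 0.01 of 0 over all tested genes. For PPP1CB the BT-TPR1 rise was lost without untreated replicate 1 or BT-TPR1 replicate 2 or 3, at values from 0.36 to 0.61 over the alternatives. The PPP1CC calls ended without untreated replicate 1 in each of the 3 pools, and also without replicates 2 or 3 of BT-TPR1, untreated replicate 2 or replicates 2 or 3 of BT-TPR2, or replicate 3 of BT-TR1, at values from 0.33 to 0.65.

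The list of small inhibitors and related regulators of protein phosphatase 1 holds the relatives of DARPP-32 along with unrelated proteins that bind the enzyme, and 11 of 14 were tested. Called higher and lower were 5 and 1 in BT-TPR1, 5 and 1 in BT-TPR2, 4 and 2 in BT-TR1, and 5 and 1 in BT-TR2, with median changes of 0.31, 0.37, 0.19 and 0.25. Among all tested genes the share called in either direction was 27.3%, 31.6%, 43.6% and 24.9%. PPP1R14C, an inhibitor switched on by protein kinase C, rose by 1.89 ± 0.22, 2.32 ± 0.21, 1.63 ± 0.23 and 1.73 ± 0.22, to 4.44 ± 0.126, 5.98 ± 1.25, 3.71 ± 0.457 and 3.97 ± 0.534 CPM, against 1.20 ± 0.170 CPM in untreated cells (SD, n = 3). PPP1R7, a nuclear regulatory subunit, rose by 0.46 to 0.56 in the 4 pools. PHACTR1, which binds both actin and protein phosphatase 1, fell by 1.56 ± 0.28, 1.72 ± 0.28, 1.27 ± 0.29 and 0.92 ± 0.26, and its call in BT-TR2 ended without untreated replicate 1 or 2 or BT-TR2 replicate 3 (-1.16 to -0.62 over the alternatives). Short treatment with trastuzumab alone went the other way for PHACTR1, which was called higher there (0.88 ± 0.23, adjusted p = 0.0239, edgeR). With both antibodies its change of -0.22 ± 0.24 did not pass.

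PPP1R1A, inhibitor-1, is the closest relative of DARPP-32 and was looked at after its values were seen. It had 3.62, 3.65 and 3.97 CPM in BT-TPR1, 1.45, 1.77 and 1.44 in BT-TPR2, 1.41, 0.783 and 1.19 in BT-TR1 and 2.16, 2.88 and 1.92 in BT-TR2. With both antibodies it had 3.13, 3.36 and 3.36 CPM, with trastuzumab 2.30, 1.86 and 1.98, and in untreated cells 1.10, 1.09 and 1.86. Its pattern was not that of PPP1R1B: BT-TPR2, high in PPP1R1B, overlapped untreated cells for PPP1R1A, and short treatment with both antibodies reached nearly the BT-TPR1 level. PPP1R1A rose in BT-TPR1 (1.46 ± 0.22, adjusted p = 7.52e-05, edgeR) and with both antibodies (1.27 ± 0.22, adjusted p = 0.000678). It rose in BT-TR2 as well (0.78 ± 0.23, adjusted p = 0.0167), a call that ended without untreated replicate 1 or 2 or BT-TR2 replicate 2 (0.56 to 1.09 over the alternatives). PPP1R1C, another member of this small family, had at most 2 reads in a library.

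Other targeting subunits of protein phosphatase 1, which direct the enzyme to glycogen, myosin and other sites, were called lower more often than higher. Of 19 tested, 2 were called higher and 7 lower in BT-TPR1, 1 and 6 in BT-TPR2, 2 and 10 in BT-TR1, and 0 and 5 in BT-TR2. With the replicate block these were 2 and 9 in BT-TPR2 and 1 and 9 in BT-TR2, where 51.1% and 45.8% of all tested genes were called. Without the block 27.3%, 31.6%, 43.6% and 24.9% of all tested genes were called in either direction in the 4 pools. Those called higher were 12.9%, 15.6%, 21.3% and 12.7%. PPP1R3E, a glycogen-targeting subunit, was the only one called lower in all 4 pools, by 0.67 ± 0.17, 0.64 ± 0.17, 0.57 ± 0.17 and 0.52 ± 0.17. The BT-TR1 call ended without untreated replicate 1 or BT-TR1 replicate 3 (-0.67 to -0.38 over the alternatives), and the BT-TR2 call without untreated replicate 1 or 3 or any one BT-TR2 library (-0.57 to -0.41 over the alternatives).

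The kinases that phosphorylate DARPP-32 were described with their regulators. Among 10 genes for protein kinase A subunits and inhibitors, all tested, 5 or 6 were not called in each pool: 3 were called higher and 1 lower in BT-TPR1, 3 and 1 in BT-TPR2, 2 and 3 in BT-TR1, and 3 and 2 in BT-TR2. In BT-TPR2 these were 5 and 2 with the replicate block, where 51.1% of all tested genes were called. Without the block the shares of all tested genes called in the 4 pools were 27.3%, 31.6%, 43.6% and 24.9%. PKIA, a peptide inhibitor of the kinase, was lower in all 4 pools, at 31.6 ± 5.71, 48.1 ± 10.9, 23.7 ± 5.14 and 46.4 ± 2.31 CPM against 72.3 ± 10.8 CPM in untreated cells (SD, n = 3; log2 fold changes -1.19 ± 0.20, -0.59 ± 0.19, -1.62 ± 0.20 and -0.64 ± 0.19). Its calls in BT-TPR2 and BT-TR2 ended without untreated replicate 2 or 3, without BT-TPR2 replicate 1 or 3 and without any one BT-TR2 library (-0.75 to -0.42 over the alternatives). PRKAR1B, a regulatory subunit, was called lower in BT-TR1 (-1.43 ± 0.33).

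Of 9 tested genes for other kinases of DARPP-32, 1 was called higher and 2 lower in BT-TPR1, 2 and 2 in BT-TPR2, 2 and 5 in BT-TR1, and 1 and 2 in BT-TR2. In BT-TPR1 these were 2 and 3 with the replicate block, where 47.4% of all tested genes were called. Without the block the shares of all tested genes called in the 4 pools were 27.3%, 31.6%, 43.6% and 24.9%. CDK5R1, the activator of CDK5, fell in all 4 pools by 0.86 ± 0.14, 0.73 ± 0.13, 1.15 ± 0.14 and 0.67 ± 0.13. PRKG1, the cGMP-dependent kinase, fell by 1.49 ± 0.31, 2.42 ± 0.34, 1.31 ± 0.33 and 1.19 ± 0.30 from a low level of 2.07 ± 0.414 CPM in untreated cells (SD, n = 3). CSNK2A1, a casein kinase 2 catalytic subunit, rose by 0.55 ± 0.10, 0.73 ± 0.10, 0.58 ± 0.10 and 0.38 ± 0.10. These calls held without any single library.

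The phosphatases that remove phosphate from DARPP-32 were called higher more often than lower. Of 12 tested, 3 were called higher and 1 lower in BT-TPR1, 5 and 1 in BT-TPR2, 8 and 1 in BT-TR1, and 5 and 1 in BT-TR2, where they were 9 and 1 with the replicate block. Over all tested genes 27.3%, 31.6%, 43.6% and 24.9% were called in either direction in these pools, and 12.9%, 15.6%, 21.3% and 12.7% higher. With the block the counts were 5 and 1 in BT-TPR1, 7 and 2 in BT-TPR2, and 9 and 3 in BT-TR1. Of all tested genes 47.4%, 51.1%, 57.5% and 45.8% were called with it in these pools and BT-TR2. Without the block the 1 called lower was the same gene in every pool, PPP3CA, the catalytic A subunit of calcineurin, which reverses the protein kinase A site. It stood at 84.5 ± 7.94, 72.7 ± 8.73, 99.0 ± 14.8 and 85.5 ± 7.28 CPM, against 200 ± 17.7 CPM in untreated cells (SD, n = 3; -1.25 ± 0.13, -1.46 ± 0.13, -1.02 ± 0.13 and -1.23 ± 0.13). PPP3CA was also called lower after short treatment with both antibodies (-0.47 ± 0.13, adjusted p = 0.0232, edgeR). With trastuzumab alone its change of -0.20 ± 0.13 did not pass. The regulatory partner of PPP3CA, PPP3R1, rose in the pools by 0.38 ± 0.11, 0.51 ± 0.11, 0.72 ± 0.11 and 0.35 ± 0.11. PPP2R5D, a protein phosphatase 2A subunit that protein kinase A activates, rose by 0.38 ± 0.10, 0.35 ± 0.10, 0.37 ± 0.10 and 0.43 ± 0.10, but did not pass in any pool when only the groups compared were fitted. For PPP3R1 the BT-TPR1 rise was lost without untreated replicate 1 or BT-TPR1 replicate 2 (0.34 to 0.53 over the alternatives), and in BT-TR2 without untreated replicate 1 or 3 or BT-TR2 replicate 2 or 3 (0.31 to 0.43).

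Upstream of protein kinase A, the receptors that drive DARPP-32 in the brain were nearly silent. The dopamine receptor genes DRD1 and DRD2 had at most 5 and 13 reads in a library, and the adenosine receptor gene ADORA2A at most 3, and none passed the filter on low counts. Of 9 tested receptors and G proteins, 0 were called higher and 2 lower in BT-TPR1, 1 and 2 in BT-TPR2, 1 and 3 in BT-TR1, and 0 and 2 in BT-TR2, while with the replicate block BT-TPR1 had 0 higher and 5 lower, and BT-TR2 had 1 higher and 3 lower. GNAI1, an inhibitory G protein subunit, was called lower in BT-TPR1 (-1.27 ± 0.22), BT-TR1 (-1.28 ± 0.23) and BT-TR2 (-1.38 ± 0.22), and in BT-TPR2 its change of -0.25 ± 0.20 did not pass. It was also called lower after short treatment with both antibodies (-0.77 ± 0.20, adjusted p = 0.0184, edgeR), but not with trastuzumab alone (-0.50 ± 0.20). Of 15 tested adenylyl cyclases and phosphodiesterases, which make and break down cAMP, 1 was called higher and 2 lower in BT-TPR1, 3 and 5 in BT-TPR2, 4 and 6 in BT-TR1, and 2 and 4 in BT-TR2. In BT-TPR1 these were 4 and 2 with the replicate block. Both these lists stand beside shares of all tested genes called of 27.3%, 31.6%, 43.6% and 24.9% in the 4 pools. With the block the share was 47.4% in BT-TPR1 and 45.8% in BT-TR2. The adenylyl cyclase ADCY9 fell by 0.81 ± 0.18, 0.68 ± 0.18, 1.29 ± 0.19 and 0.84 ± 0.18, and ADCY2 by 1.42 ± 0.22, 2.56 ± 0.24, 1.67 ± 0.24 and 0.62 ± 0.21. The phosphodiesterase PDE8A rose by 0.59 ± 0.14, 1.00 ± 0.14, 0.75 ± 0.15 and 1.08 ± 0.14. For ADCY9 the BT-TPR2 fall was lost without untreated replicate 1 (-0.91 to -0.48 over the alternatives), and the ADCY2 call in BT-TR2 without untreated replicate 1 or 3 or any one BT-TR2 library (-0.67 to -0.45).

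Downstream, the CREB factors and the genes that cAMP induces were called in numbers that varied with the pool and with the fit. Of 13 tested CREB factors and targets, 0 were called higher and 1 lower in BT-TPR1, 4 and 3 in BT-TPR2, 1 and 6 in BT-TR1, and 1 and 2 in BT-TR2. With the replicate block BT-TPR1 had 3 higher and 4 lower, and BT-TR2 had 3 higher and 5 lower. The share of all tested genes called varied too, at 27.3%, 31.6%, 43.6% and 24.9% in the 4 pools in that order. With the block it was 47.4% in BT-TPR1 and 45.8% in BT-TR2. FOS, an immediate early gene, stood at 1.79 ± 0.360, 3.27 ± 1.07, 1.82 ± 0.479 and 2.23 ± 0.312 CPM in the pools in the same order, against 8.45 ± 0.960 CPM in untreated cells (SD, n = 3), and fell by 2.23 ± 0.25, 1.38 ± 0.23, 2.21 ± 0.27 and 1.92 ± 0.24. FOS was also lower after 3 days with both antibodies, at 2.38 ± 0.520 CPM (SD, n = 3; -1.82 ± 0.24, adjusted p = 4.83e-05, edgeR). With trastuzumab alone its change of -0.49 ± 0.22 did not pass (adjusted p = 0.199). The median change of the list in the pools was -0.09, 0.22, -0.38 and -0.01.

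Receptors and effectors that have been tied to DARPP-32 or t-DARPP in cancer cells were split as well. Of 11 tested, 2 were called higher and 2 lower in BT-TPR1, 3 and 2 in BT-TPR2, 4 and 4 in BT-TR1, and 3 and 3 in BT-TR2, with 4 and 4 in BT-TPR1 with the replicate block. Among all tested genes 27.3%, 31.6%, 43.6% and 24.9% were called in these pools, and 47.4% in BT-TPR1 with the block. CXCR4, a chemokine receptor, stood at 50.8 ± 9.90, 56.7 ± 10.3, 40.2 ± 4.45 and 54.2 ± 8.88 CPM, against 19.0 ± 2.43 CPM in untreated cells (SD, n = 3), rises of 1.42 ± 0.22, 1.58 ± 0.22, 1.08 ± 0.22 and 1.51 ± 0.22. EGFR rose in all 4 pools, and IGF1R and BCL2, the insulin-like growth factor receptor and a survival protein, fell in all 4. EGFR was also called higher after short treatment with both antibodies (0.45 ± 0.13, adjusted p = 0.0272, edgeR), but not with trastuzumab alone (0.15 ± 0.13). IGF1R fell by 0.78 ± 0.16, 0.52 ± 0.16, 1.04 ± 0.16 and 0.99 ± 0.16, and BCL2 by 0.61 ± 0.17, 0.60 ± 0.17, 1.40 ± 0.18 and 1.09 ± 0.17. For IGF1R the BT-TPR2 fall was lost without untreated replicate 1 or BT-TPR2 replicate 2 or 3 (-0.66 to -0.35 over the alternatives). The BCL2 calls ended without untreated replicate 2 in BT-TPR1 and BT-TPR2, and in BT-TPR1 also without its replicate 1 or 2 (-0.75 to -0.45).

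Genes whose levels followed PPP1R1B over the 7 groups were ranked by the root mean square difference between group means of log2 CPM, each centred on its own mean, over 14937 genes. This is a description of 7 points that fall into 2 clusters, the pools and the other groups, and libraries are shared by all genes. The nearest were MUC5AC, encoding a gel-forming mucin (0.738 log2 units), S100A4, a calcium-binding protein gene (0.867), ASS1P11 (0.983), ASS1, encoding argininosuccinate synthase (1.01), TNNT1, a slow muscle troponin gene (1.03), and RP11-336N8.2 (1.03). The median gene lay at 2.21 from PPP1R1B, which is also the spread of PPP1R1B about its own mean (2.21). ASS1P11 and RP11-336N8.2 are annotated as processed pseudogenes, and ASS1P11 is a copy of ASS1, so the reads of those 2 may be shared. S100A4 averaged 29.9 ± 2.22, 30.8 ± 1.74, 19.6 ± 5.82 and 18.3 ± 2.29 CPM in BT-TPR1, BT-TPR2, BT-TR1 and BT-TR2, then 2.39 ± 0.115 with both antibodies, 3.20 ± 0.657 with trastuzumab and 3.95 ± 0.512 in untreated cells (SD, n = 3). MUC5AC averaged 13.7 ± 2.79, 4.00 ± 0.774, 5.82 ± 2.11, 6.23 ± 1.39, 0.222 ± 0.0659, 0.318 ± 0.0632 and 0.429 ± 0.312 CPM over the same groups. Only S100A4 of these 6 was among the 10 genes with the same order of pools. TNNT1 was near the detection limit outside the pools, at 0.0858 CPM with both antibodies, 0.138 with trastuzumab and 0.365 in untreated cells. Low levels make a distance depend on the constant added to the counts. With a prior count of 0.5 in place of 2, ASS1P9 and ASS1P1 took the places of ASS1 and TNNT1 among the nearest 6. MUC5AC stayed nearest, at 0.753.

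Some genes had nearly the mirror-image profile. CALCR, the calcitonin receptor gene, lay 0.413 from the mirror image of PPP1R1B, FSTL5, a secreted follistatin-like protein gene, 0.533, and CYSLTR1, a leukotriene receptor gene, 0.686. CALCR averaged 0.0214 ± 0.0370, 0.0194 ± 0.0336, 0.340 ± 0.240 and 0.123 ± 0.116 CPM in BT-TPR1, BT-TPR2, BT-TR1 and BT-TR2, then 1.43 ± 0.454 with both antibodies, 3.24 ± 1.12 with trastuzumab and 4.42 ± 0.332 in untreated cells (SD, n = 3). FSTL5 averaged 0.146 ± 0.0768, 0.251 ± 0.114, 0.442 ± 0.320, 0.694 ± 0.133, 3.61 ± 0.415, 6.11 ± 0.351 and 11.1 ± 2.28 CPM over the same groups. Both were thus lowest in the dual-resistant pools, where PPP1R1B was highest, and near the detection limit there, so their distances depend on the constant added to the counts. With a prior count of 0.5 in place of 2, chosen after seeing the data, the distances were 0.524 for CALCR, 0.506 for FSTL5 and 1.03 for CYSLTR1, and on the deposited transformed values 0.827, 0.769 and 0.785. With Pearson's r over the 7 group means in place of the distance, none of the 6 nearest genes were kept. Unlike the distance, r takes no account of the size of changes, and why the genes differed was not tested.

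**Figure D5:**
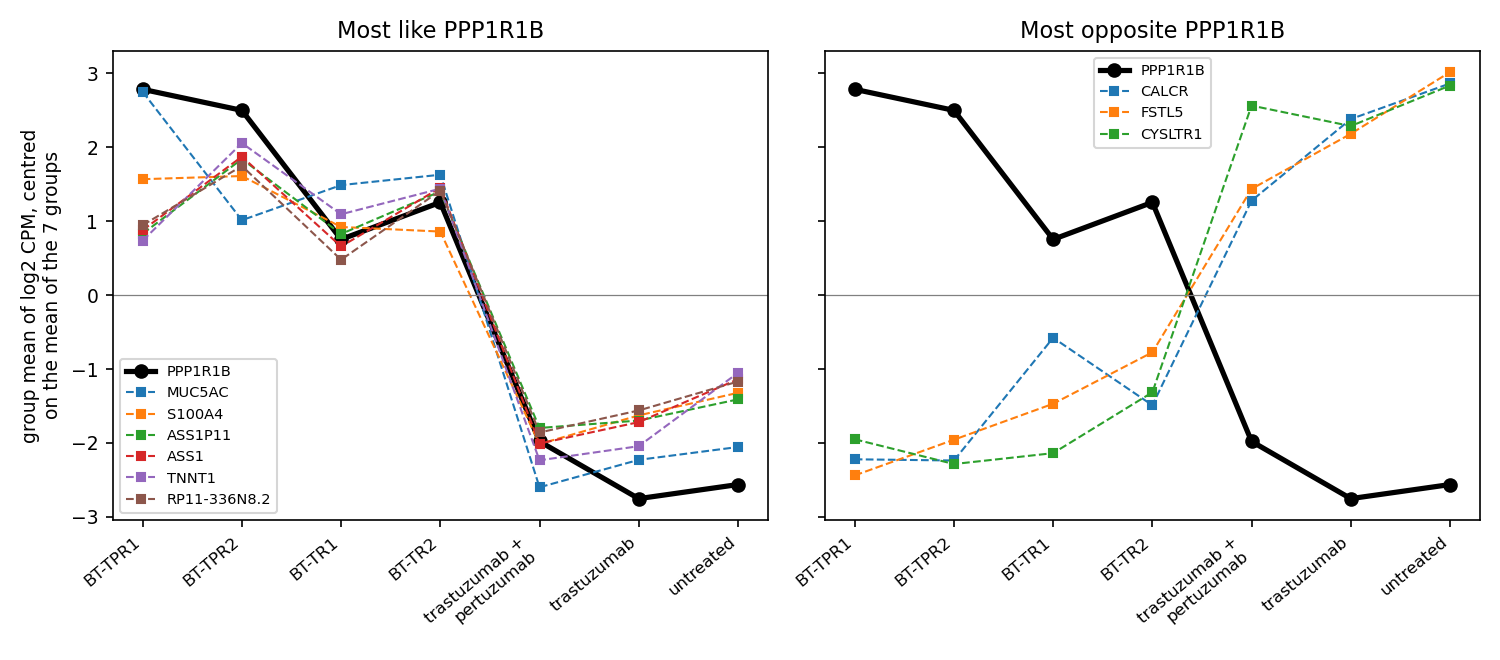
Group means of log2 CPM, each centred on its mean over the 7 groups, for PPP1R1B (black) with the 6 nearest genes on the left and the 3 nearest to its mirror image on the right. The 6 like genes lie above 0 in all 4 pools and below 0 in the other groups, and CALCR, FSTL5 and CYSLTR1 do the reverse.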

How the data were processed

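RNA from 21 libraries in 7 groups of 3 was compared at the gene level. The deposited table holds raw read counts per gene; Bowtie2, featureCounts, DESeq2 and build hg38 are named in the submitters' processing notes, with versions, settings and strand not given in the sources used here. The authors also deposited transformed values on a log2-like scale, used here for an alternative only.

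The fits used edgeR 4.0.16 under R 4.3.3, with filterByExpr by group (minimum count 10, minimum total 15), TMM normalization, 1 fit over all libraries with a term per group (14 residual degrees of freedom), the quasi-likelihood test and Benjamini-Hochberg adjustment over 17650 genes. CPM were computed from the TMM-normalized library sizes. Group means of log2 CPM used a prior count of 2, and genes needed a mean of 1 CPM. The script was tested on simulated data.

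Gene positions, GC content and transcripts came from GENCODE 29 on hg38, which placed 36530 genes. GC content, also in the GC correction, was that of the longest transcript of each gene, which for PPP1R1B retains an intron. PPP1R1B and the gene lists were chosen with earlier results of these data known. Named list members were those called one way in all 4 pools (at most 4), else up to 2 with the largest change, plus the neighbours from CDK12 to GRB7; not every gene the rule names is reported.

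Totals were 7939270 to 21746391 counts, and libraries of a group differed by a chi-square of 5.36 to 74.5 per degree of freedom, beyond counting error, so none was a copy of another. Same-numbered libraries deviated together (every correlation over 0.1) in 12 of 18 comparisons, all 4 pools against untreated cells included; pairing rests on this check, not on the labels. The exceptions were both antibodies against untreated cells, BT-TR1 against either treatment, and BT-TR1 against each other pool. Tried as alternatives were leaving out the filter, a stricter one (1 CPM in 3 libraries, total 10), RLE, library size alone, DESeq2 1.42.0, limma 3.58.1 on the transformed values, only the groups compared, the replicate block, replicates 2 and 3 alone, thinning to the shallowest library, a GC correction (spline, 5 degrees of freedom) with and without the block, and each library left out.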

Additional observations from a re-analysis of the deposited data

Results flagged for a closer look

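Each of the 4 comparisons of a dual-resistant pool with a trastuzumab-resistant pool tests a difference between groups that both changed against untreated cells. PPP1R1B differed by 2.03 between BT-TPR1 and BT-TR1, 1.53 between BT-TPR1 and BT-TR2, 1.74 between BT-TPR2 and BT-TR1 and 1.25 between BT-TPR2 and BT-TR2 (log2, first pool minus second), each passing edgeR's test. The 2 trastuzumab-resistant pools differed by 0.49 (BT-TR2 minus BT-TR1), and both antibodies differed from trastuzumab by 0.78. These last 2 differences are the ones whose calls ended in several alternatives.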

How the results depend on the processing

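Over 33 alternatives PPP1R1B kept its direction and its call in every comparison of a pool with untreated or treated cells and of dual-resistant with trastuzumab-resistant pools; against untreated cells its changes lay between 4.98 and 5.57 in BT-TPR1, 4.70 and 5.29 in BT-TPR2, 2.99 and 3.93 in BT-TR1, and 3.47 and 4.00 in BT-TR2. The change in BT-TPR2 against BT-TPR1 did not pass in any. Without one library at a time the changes ran from 0.53 to 0.72 for both antibodies against untreated cells, -0.44 to 0.0090 for trastuzumab, 0.58 to 1.05 for both antibodies against trastuzumab and 0.42 to 0.58 for BT-TR2 against BT-TR1. The call for both antibodies against untreated cells ended with no filter (0.60, adjusted p = 0.0508), only the groups compared (0.61, 0.122), replicates 2 and 3 alone (0.47, 0.0633) and thinning (0.80, 0.053). Against trastuzumab it ended with only the groups compared (0.78, 0.516), thinning (0.55, 0.942) and the GC correction (0.84, 0.139). The change with trastuzumab turned to 0.25 with thinning (0.68). BT-TR2 against BT-TR1 ended with only the groups compared (0.50, 0.0502), thinning (0.43, 0.0694) and the GC correction (0.020, 0.962), and turned to -0.0096 with the GC correction and replicate block (0.968). With the GC correction, in BT-TR1 STARD3 turned to 0.067 (0.072 with the block too), TCAP to 0.80 (0.81), PNMT to 0.68 (0.66) and GRB7 to 0.37 (0.37), and GRB7 in BT-TPR1 to 0.059 (0.060); scaled by library size alone the last was 0.044. Without one library the sign also turned for GRB7 in BT-TPR1 (-0.30 to 0.16), TCAP in BT-TR1 (-0.23 to 0.043), STARD3 in BT-TR2 (-0.46 to 0.033) and ERBB2 in BT-TR2 (-0.27 to 0.13). The cause was not tested. Of the 6 genes nearest to PPP1R1B, 0 were kept with Pearson's r and 2 with a floor of 5 CPM, against 4 to 6 otherwise. Library size alone moved the median of all genes by 0.14 in BT-TPR1 against untreated cells. The replicate block changed no PPP1R1B call. Over all alternatives, 111 values of named genes lost their call, 87 gained one, 18 changed sign and 3841 did neither; 155 list counts moved by over 1.5 times and 1297 did not, and of the counts of all genes called 93 moved and 600 did not.

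Isoforms, protein and DNA copy number were outside what gene counts measure. In the 9 libraries without resistance PPP1R1B had 31 to 70 reads, which sets the precision of the short-treatment comparisons; intervals cover the spread between libraries only.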
